A study of Mus musculus with 58 samples.

Results

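Transcripts of 9 complement components and receptors were followed in mouse forebrain microglia: C1qa, C1qb and C1qc, C3, C4b, Cfb, C3ar1, C5ar1 and Itgam. They were taken by gene symbol from 3 tables of raw read counts, and were chosen with earlier results of these data known. All 9 were listed among the 24940 genes of the age series and all 9 passed its filter on low counts, which left 14309 genes. Both tables of antisense oligonucleotide (ASO) experiments listed 8 of the 9, among 10277 genes in wild type and 10589 genes in the knockout. Cfb was in neither of those.

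The age series compared wild-type (WT) and Sgsh knockout (SgshKO) mice, both on C57BL/6, in 22 polyA RNA libraries. Sgsh encodes the lysosomal enzyme sulfamidase, which takes part in heparan sulfate breakdown, and its loss is the cause of Sanfilippo syndrome type A. The groups were WT at 3 weeks (n = 3), SgshKO at 3 weeks (n = 4), WT at 4 months (n = 2), SgshKO at 4 months (n = 2), WT at 8 months (n = 4) and SgshKO at 8 months (n = 7). The ASO experiments used a single intracerebroventricular injection, with microglia collected 14 days later. An ASO is a short synthetic strand that lowers the transcript it pairs with. WT mice (20 libraries) received PBS, a control ASO, or an ASO to Mitf, Tfeb or Tfe3 (n = 4 each). SgshKO mice (16 libraries) received the control ASO or ASOs to Mitf and Tfe3 together (n = 8 each). The titles place these libraries in grp 1 and grp 2, with 4 libraries of each treatment in each, and do not say what a grp is. Mitf, Tfeb and Tfe3 are transcription factors of 1 family that act on lysosomal genes. The knockout allele, the age of the injected mice and their sex are not given in the sources used here. Nothing in the labels says whether the libraries of a group came from separate animals, so the p-values measure the spread between these libraries. The sort gate took cells positive for CD11b and CX3CR1 and low in CD45. CD11b is the protein of Itgam, so the gate selects on the product of 1 of the genes described.

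Counted reads ran from 8191508 to 27106584 per library in the age series, from 14372015 to 30378870 in the WT ASO table and from 12517838 to 30431437 in the SgshKO ASO table. Sgsh reads were present in every SgshKO library. The Sgsh level was 20.1 to 34.7 CPM (read counts scaled to a common library size) at 8 months in SgshKO and 31.9 to 59.2 CPM in WT, so the ranges overlapped. Sgsh was still called lower in SgshKO at 8 months, with a log2 fold change of -0.74 ± 0.16 (SE, edgeR, adjusted p = 0.00058). The values of -0.32 ± 0.20 at 3 weeks and -0.40 ± 0.27 at 4 months did not pass (edgeR, adjusted p = 0.43 and 0.33). Each ASO target was low under its own ASO: Mitf was at 1.01 to 2.15 CPM under its ASO against 34.5 to 50.4 CPM under the control ASO, Tfeb at 4.59 to 6.91 CPM against 52.6 to 58.1 CPM, and Tfe3 at 34.9 to 40.5 CPM against 192 to 202 CPM. In SgshKO the pair of ASOs left 20.9% of Mitf and 47.3% of Tfe3. The summed level of 7 microglial markers was 36876 to 49161 CPM in WT and 26049 to 45084 CPM in SgshKO libraries of the age series, and 6 of the 7 were called lower in SgshKO at 8 months. Tests below are edgeR quasi-likelihood tests with Benjamini-Hochberg adjustment over all genes of a table, and a gene is called changed where the adjusted p is under 0.05. The 3 tables were fitted apart and no test crosses them.

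Complement is a cascade of plasma and tissue proteins that tags and clears targets. In the classical pathway, C1q binds a target and starts cleavage of C4 and C2, which leads to cleavage of C3; factor B, the product of Cfb, builds the C3-cleaving enzyme of the alternative pathway. Fragments of C3 are read by the receptor C3aR1 and by the integrin CR3, made of CD11b (Itgam) and CD18 (Itgb2), and the fragment C5a is read by C5aR1. Microglia are a main source of C1q in the brain, and C1q and C3 with CR3 take part in the removal of synapses.

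The 3 C1q genes lie side by side on the minus strand of chromosome 4 in mm10: C1qb at 136880145 to 136886177, C1qc at 136889802 to 136892914 and C1qa at 136895916 to 136898844. The gap is 3624 bases between C1qb and C1qc and 3001 bases between C1qc and C1qa. C4b is at chromosome 17, 34728381 to 34743897, Cfb at 34856374 to 34862514 with C2 only 87 bases further on, and C3 at 57203967 to 57228136 on the same chromosome. RefSeq promoters (GRCm38.p6) were listed for 6 of the 9 genes: C1qb, C1qc, C3, C3ar1, C5ar1 and Itgam. The 250 bases before the start are shown for C1qb and C1qc, neighbours whose levels moved together, and for C3, whose level changed most. Positions are counted from the start in the RefSeq table, which for C1qc and C3 is the gene end given above and for C1qb lies 23 bases beyond it. Capitals mark GGAAGT on either strand (here always read as ACTTCC), a form of the motif that ETS factors such as PU.1 bind.
C1qb, chr4:136886201-136886450, minus strand: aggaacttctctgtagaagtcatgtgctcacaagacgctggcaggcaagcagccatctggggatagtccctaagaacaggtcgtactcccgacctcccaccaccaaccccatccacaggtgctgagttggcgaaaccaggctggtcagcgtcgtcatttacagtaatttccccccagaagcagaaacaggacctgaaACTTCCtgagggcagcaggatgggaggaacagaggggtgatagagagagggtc
C1qc, chr4:136892915-136893164, minus strand: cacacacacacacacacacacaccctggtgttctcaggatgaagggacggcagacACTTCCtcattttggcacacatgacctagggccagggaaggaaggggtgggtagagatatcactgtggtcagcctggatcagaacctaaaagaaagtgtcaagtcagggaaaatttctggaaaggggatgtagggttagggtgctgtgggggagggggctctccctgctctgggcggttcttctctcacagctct
C3, chr17:57228137-57228386, minus strand: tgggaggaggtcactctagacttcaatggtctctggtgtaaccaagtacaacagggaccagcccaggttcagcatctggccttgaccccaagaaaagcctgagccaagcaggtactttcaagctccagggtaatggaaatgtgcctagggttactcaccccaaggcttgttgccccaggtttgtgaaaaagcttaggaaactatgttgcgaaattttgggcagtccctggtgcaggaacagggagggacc
GGAAGT lay 53 bases before the RefSeq start of C1qb and 195 bases before that of C1qc, and C5ar1 had it at 190 and 72 bases. It was in 3 of the 6 windows and in 19.7% of all 32851 windows of that length. The E-box CACGTG, a motif that the Mitf family binds, was in 0 of the 6 and in 6.02% of all; that says only that these letters are not in these windows.

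Per length, the genes differed widely in level. In WT at 8 months, C1qc had 5677 ± 258 TPM (the length-scaled unit of the deposited transcript table; SD, n = 4), C1qb 5537 ± 341 and C1qa 5316 ± 398, which do not differ beyond their spread. Itgam followed at 703 ± 29.2 TPM, then C3ar1 at 121 ± 8.99 and C5ar1 at 107 ± 58.1 TPM, whose ranges overlap. C4b stood at 2.67 ± 2.47 TPM, Cfb at 0.652 ± 0.127 and C3 at 0.317 ± 0.227 TPM. In SgshKO at 8 months the order at the top was C1qb (7289 ± 616 TPM, n = 7), C1qa (7111 ± 403) and C1qc (6440 ± 359), and the bottom had changed: C4b was at 48.9 ± 59.9 TPM and C3 at 23.0 ± 13.8 TPM, both above Cfb at 1.21 ± 0.379 TPM.

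**Figure D1:**
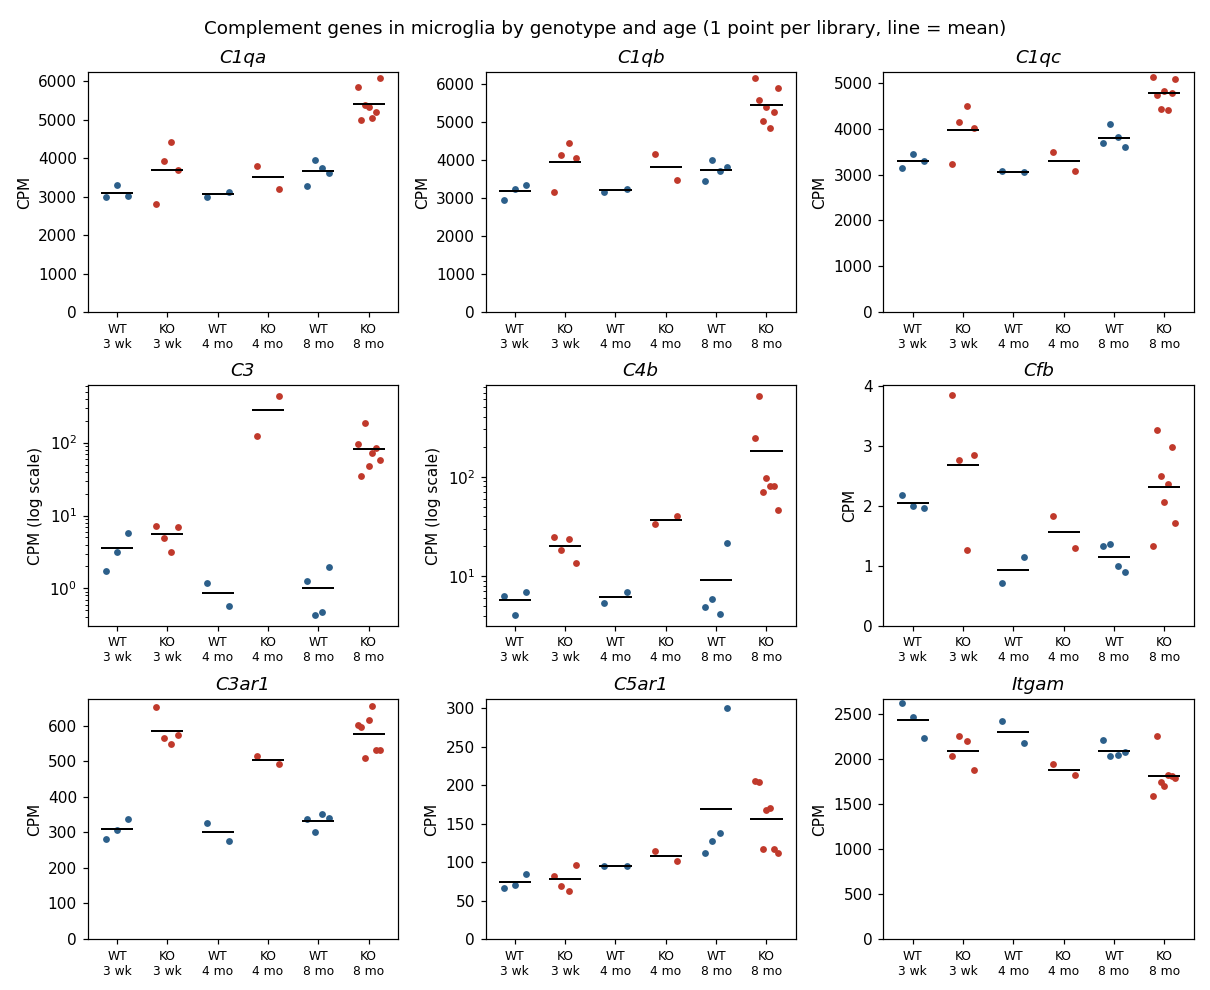
CPM of the 9 genes in the 22 libraries of the age series, 1 point per library (blue WT, red SgshKO) with the group mean as a line; the C3 and C4b axes are logarithmic. At 8 months every SgshKO library lies above every WT library for C1qa, C1qb, C1qc, C3, C4b and C3ar1; the groups lay apart in this way, in either direction, for 25.2% of all genes tested.

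At 8 months, 7 of the 9 genes were higher in SgshKO (C1qa, C1qb, C1qc, C3, C4b, Cfb and C3ar1), Itgam was lower, and C5ar1 did not pass the test. Over all genes 21.6% were called higher and 18.9% lower at that age. The median log2 fold change was 0.56 over the 9 genes and 0.02 over all genes tested. At 4 months C3 and C3ar1 were higher and none was lower, against 10.3% higher and 9.26% lower over all genes. At 3 weeks only C3ar1 was called, against 5.31% higher and 3.72% lower over all genes. In bulk RNA, more of a transcript per cell and more cells that carry it cannot be told apart.

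C1q, the initiator of the classical pathway, was already the most abundant and rose by less than 1 on the log2 scale. C1qa at 8 months was 3291, 3962, 3760 and 3620 CPM in WT and ran from 4985 through a median of 5325 to 6086 CPM in SgshKO. The groups did not overlap, which held in either direction for 25.2% of all genes tested at 8 months, and C1qa rose by 0.56 ± 0.09 on the log2 scale (SE; adjusted p = 1.9e-05). C1qb was 3451, 3981, 3707 and 3817 CPM in WT and 4822 to 6145 CPM in SgshKO (median 5377), higher by 0.54 ± 0.08 (adjusted p = 1.1e-05). For C1qc the WT values were 3695, 4102, 3820 and 3610 CPM and SgshKO ran from 4416 to 5135 CPM (median 4779), a rise of 0.33 ± 0.07 (adjusted p = 0.00087). The smallest of these 3 changes, that of C1qc, lost its call with limma on both TPM scales: 0.18 on log2(TPM + 1), adjusted p = 0.068, and 0.18 on log2(TPM + 0.1), adjusted p = 0.085.

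At 3 weeks the C1q values already leaned the same way without passing the test. C1qb was 2933, 3241 and 3343 CPM in WT and 3151, 4122, 4439 and 4034 CPM in SgshKO, a difference of 0.31 ± 0.10 on the log2 scale (adjusted p = 0.052); 1 SgshKO library, replicate 1, lay inside the WT range. The differences were 0.27 ± 0.09 for C1qc (adjusted p = 0.059) and 0.26 ± 0.11 for C1qa (adjusted p = 0.17). DESeq2 called C1qb (0.30, adjusted p = 0.023) and C1qc (0.26, adjusted p = 0.026). Without SgshKO replicate 1, edgeR called 4 of the 9 genes at 3 weeks. That fit called 725 higher and 436 lower of all 14286 genes tested. Transcripts known to respond to tissue dissociation also differed at that age: 2 of the 8 listed, Atf3 and Dusp1, were called higher in SgshKO and 0 lower, with sums of 3010 to 4966 CPM in WT and 2619 to 16087 CPM in SgshKO, highest in replicate 1. Their part in the 3-week differences, that of C3ar1 included, was not tested. At 4 months, with 2 libraries a group, C1qa was 2991 and 3128 CPM in WT and 3807 and 3211 CPM in SgshKO, and none of the 3 genes passed.

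Whether the C1q difference grew with age was tested directly. The genotype difference at 8 months minus that at 3 weeks was 0.31 ± 0.14 for C1qa (adjusted p = 0.19), 0.23 ± 0.13 for C1qb (adjusted p = 0.31) and 0.06 ± 0.11 for C1qc (adjusted p = 0.84; -0.04 without SgshKO 3-week replicate 1), so growth with age was not shown. Within SgshKO, from 3 weeks to 8 months, C1qa rose by 0.55 ± 0.09 (adjusted p = 5.8e-05), C1qb by 0.47 ± 0.08 (adjusted p = 0.00013) and C1qc by 0.27 ± 0.07 (adjusted p = 0.0070). Without SgshKO 3-week replicate 1 the adjusted p for C1qc was 0.052. In WT the same ageing gave 0.24 ± 0.11, 0.24 ± 0.10 and 0.21 ± 0.09, none of which passed (adjusted p = 0.20, 0.16 and 0.17).

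**Figure D2:**
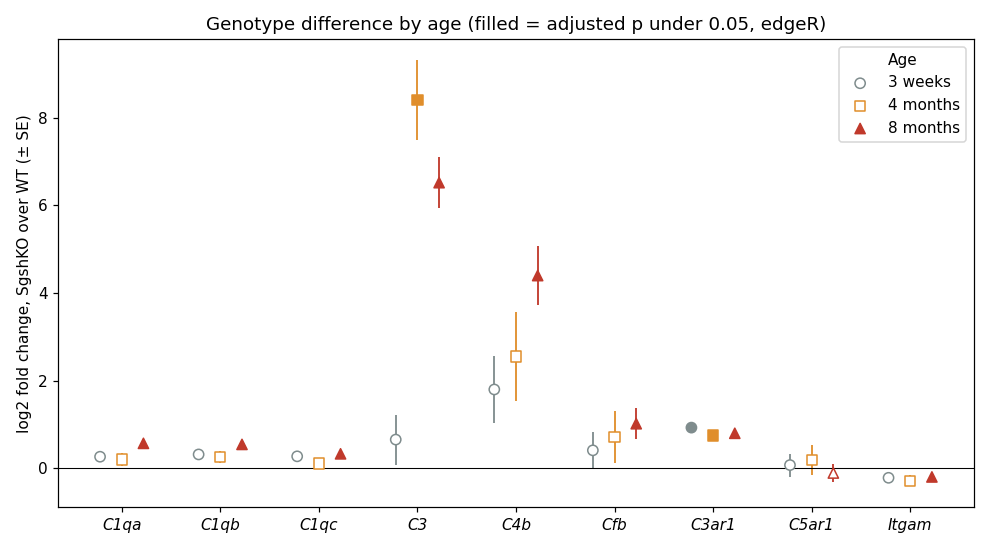
Log2 fold change of SgshKO over WT for each gene at 3 weeks (circles), 4 months (squares) and 8 months (triangles), with SE bars; filled symbols passed an adjusted p of 0.05 in edgeR. C3 stands at 8.41 at 4 months and 6.52 at 8 months, C4b at 4.40 at 8 months, and C3ar1 is filled at all 3 ages.

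C3, on whose cleavage the pathways converge, was nearly absent from WT microglia and high in older SgshKO libraries. In WT it was 1.75, 3.13 and 5.81 CPM at 3 weeks, 1.18 and 0.574 CPM at 4 months, and 1.25, 0.436, 0.472 and 1.95 CPM at 8 months. SgshKO libraries had 7.27, 4.94, 3.19 and 7.02 CPM at 3 weeks, 125 and 433 CPM at 4 months, and 34.5 to 187 CPM at 8 months (median 72.4). The genotypes overlapped at 3 weeks and lay far apart later. In either direction 58.1% of all genes did not overlap at 4 months (2 libraries against 2) and 25.2% at 8 months.

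C3 rose by 8.41 ± 0.91 on the log2 scale at 4 months (adjusted p = 3.5e-07) and by 6.52 ± 0.58 at 8 months (adjusted p = 2.0e-09), while at 3 weeks the difference of 0.65 ± 0.57 did not pass (adjusted p = 0.63). C3 was the only one of the 9 genes whose genotype difference was shown to change with age. The difference at 4 months exceeded that at 3 weeks by 7.76 ± 1.1 (adjusted p = 0.00019), where 1.63% of all genes were called higher and 0.895% lower. The excess of 8 months over 3 weeks was 5.87 ± 0.83 (adjusted p = 4.1e-05), with 5.98% of all genes higher and 3.26% lower. Between 8 and 4 months it was -1.89 ± 1.26 (adjusted p = 0.61), and 0 of the 9 genes were called there by edgeR (0.259% of all genes higher, 0.133% lower; 1 of the 9, C1qa, had an unadjusted p under 0.05, and DESeq2 also called 0 of them).

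Neutrophil transcripts were high in the same libraries. The summed level of 9 neutrophil markers was 1.15 to 7.68 CPM in WT at all ages and 1.74 to 31.3 CPM in SgshKO at 3 weeks, but 3017 and 14837 CPM in SgshKO at 4 months and 436 to 5859 CPM at 8 months. All 9 markers were called higher at 4 and at 8 months; Retnlg had 0 counts in WT at 4 and 8 months and Cxcr2 had 0 in WT at 4 months. The sort gate kept CD45low cells, and whether neutrophils passed it was not tested. The 4-month library with the higher C3 (433 CPM) also had the higher neutrophil sum (14837 CPM). At 8 months replicate 3 was highest in both (187 CPM of C3, sum 5859) and replicate 1 next in both (96.7 CPM, sum 2857). The other 5 libraries did not keep that order: replicate 6 had 85.2 CPM of C3 with the lowest sum (436 CPM), and replicate 2 the lowest C3 (34.5 CPM) with a sum of 833 CPM. With replicates 1 and 3 left out, C3 at 8 months was higher by 6.02 ± 0.48 (adjusted p = 8.1e-10), and C4b by 4.46 ± 0.67 (adjusted p = 1.3e-05). The 5 libraries kept still had neutrophil sums of 436 CPM or more, against 2.09 to 3.95 CPM in WT at 8 months. That fit therefore does not take the neutrophil transcripts out. Monocyte markers moved too: 4 of 6 were called higher at 8 months (21.6% of all genes), with sums of 80.3 to 490 CPM in SgshKO and 12.97 to 17.95 CPM in WT. The sum was uneven between markers. Chil3 had the most reads of the 6, 21363 in the 7 SgshKO libraries against 13 in the 4 WT libraries. Ccr2 had 1331 and 619. Border macrophage markers were higher for 4 of 6 at 8 months, with sums of 56.3 to 105 CPM in SgshKO and 15.8 to 32.1 CPM in WT. The part of any of these cells in the C3 level was not tested.

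**Figure D3:**
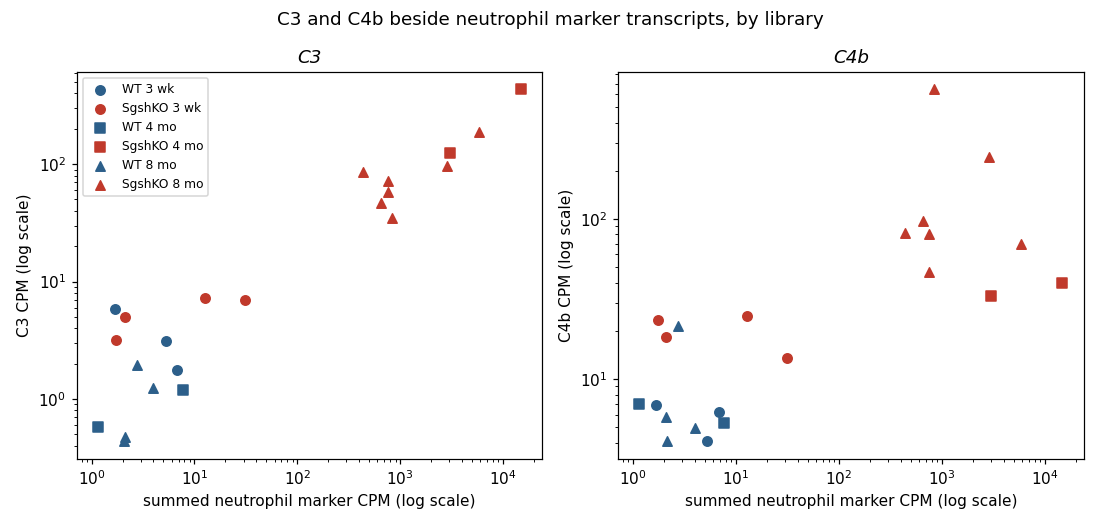
CPM of C3 (left) and C4b (right) against the summed CPM of 9 neutrophil markers, 1 point per library of the age series, all axes logarithmic. The SgshKO libraries at 4 and 8 months have neutrophil sums of 436 or more; the highest C4b, 643 CPM, has a sum of 833.

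C4b, whose product is cleaved by the C1 complex, also rose, with a wide spread between libraries. It was 4.93, 5.82, 4.1 and 21.3 CPM in WT at 8 months and ran from 46.3 through a median of 81.5 to 643 CPM in SgshKO. The groups did not overlap, as for 25.2% of all genes in either direction. WT replicate 4 still stood above its group, and SgshKO replicates 2 (643 CPM) and 1 (244 CPM) above theirs. The rise was 4.40 ± 0.67 (adjusted p = 9.4e-06), and it was 3.56 to 5.15 with any 1 library left out. Replicate 2, highest in C4b, was the lowest of the 7 in C3, while replicate 1 was the second highest in C4b, in C3 and in the neutrophil sum.

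At 3 weeks every SgshKO library (24.6, 18.2, 23.4 and 13.5 CPM) lay above every WT library (6.24, 4.09 and 6.87 CPM), as for 22.5% of all genes in either direction, yet the difference of 1.80 ± 0.76 did not pass (adjusted p = 0.18). At 4 months C4b was 5.32 and 6.96 CPM in WT and 33.1 and 39.8 CPM in SgshKO (2.55 ± 1.01, adjusted p = 0.080). With no low-count filter it was called at both ages (adjusted p = 0.021 and 0.0061), and DESeq2 called it at 4 months (adjusted p = 0.046). The genotype difference at 8 months minus that at 3 weeks was 2.60 ± 0.97 (adjusted p = 0.097); without WT 8-month replicate 4 it passed, at 3.38 (adjusted p = 0.029). Within SgshKO, C4b rose by 3.18 ± 0.61 from 3 weeks to 8 months (adjusted p = 0.00030). C4b has a near-identical neighbour, C4a, and reads shared by the 2 could be assigned to either, so the split between them is uncertain. C4a as counted was at 0.727 to 1.56 CPM in WT and 0.169 to 1.94 CPM in SgshKO at 8 months and was called in none of the 8 age-series comparisons.

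Cfb, which encodes factor B, was 1.32, 1.4, 0.991 and 0.884 CPM in WT at 8 months and 1.33 to 3.26 CPM in SgshKO (median 2.37), and the ranges overlapped at their edge. The difference of 1.01 ± 0.36 passed (adjusted p = 0.027), lost its call in 4 of 11 fits that left out 1 library (WT replicate 3 or 4, SgshKO replicate 2 or 6; largest adjusted p = 0.080) and with no low-count filter (adjusted p = 0.092), and rested on 78 reads in WT and 303 in SgshKO. At 3 weeks and 4 months it was 0.41 ± 0.42 and 0.71 ± 0.60 (adjusted p = 0.70 and 0.45).

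C3ar1, the receptor for C3a, was called higher at all 3 ages. It was 282, 306 and 337 CPM in WT at 3 weeks against 652, 564, 548 and 575 CPM in SgshKO, a rise of 0.92 ± 0.10 (adjusted p = 3.1e-07). At 4 months it was 326 and 277 CPM in WT and 516 and 492 CPM in SgshKO (0.74 ± 0.13, adjusted p = 0.00013). At 8 months WT had 339, 302, 352 and 340 CPM and SgshKO 509 to 656 CPM (median 597), higher by 0.79 ± 0.08 (adjusted p = 1.7e-08). The groups did not overlap at any age, while over all genes 22.5% did not overlap at 3 weeks, 58.1% at 4 months (2 libraries against 2) and 25.2% at 8 months. Its genotype difference did not pass a test of change between 3 weeks and 8 months (-0.13 ± 0.12, adjusted p = 0.59).

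C5ar1, the C5a receptor, moved with age and not detectably with genotype. It was 66.7, 70.3 and 84.5 CPM in WT and 82.2, 68.4, 62.5 and 96.6 CPM in SgshKO at 3 weeks. At 8 months WT had 112, 128, 137 and 300 CPM and SgshKO 111 to 205 CPM (median 168). The genotype differences were 0.07 ± 0.26 at 3 weeks, 0.18 ± 0.34 at 4 months and -0.11 ± 0.21 at 8 months (adjusted p = 0.94, 0.78 and 0.71), and that at 8 months was 0.28 without WT replicate 4. From 3 weeks to 8 months C5ar1 rose by 1.19 ± 0.27 in WT (adjusted p = 0.0055; 0.76 without replicate 4) and by 1.01 ± 0.22 in SgshKO (adjusted p = 0.0011). It was the only one of the 9 called with age in WT, where 3.02% of all genes were higher and 4.63% lower. In SgshKO 6 of the 9 were higher with age (C1qa, C1qb, C1qc, C3, C4b and C5ar1) and Itgam was lower, against 15.5% and 15.1% of all genes.

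Itgam, which encodes the CD11b chain of CR3, was slightly lower in SgshKO. At 8 months it was 2208, 2027, 2040 and 2078 CPM in WT and 1586 to 2250 CPM in SgshKO (median 1788). Replicate 2, at 2250 CPM, lay above all WT libraries and the other 6 lay below them. The log2 fold change was -0.20 ± 0.08 (adjusted p = 0.037), and leaving out WT replicate 1 or 3 or SgshKO replicate 1 or 4 ended the call (largest adjusted p = 0.11). At 3 weeks it was -0.22 ± 0.09 (adjusted p = 0.17) and at 4 months -0.29 ± 0.12 (adjusted p = 0.11). Its fall with age in SgshKO (-0.20 ± 0.08, adjusted p = 0.047) was called in 2 of 11 fits that each left out 1 library. The partner chain Itgb2 went the other way: it was 494 to 571 CPM in WT and 831 to 895 CPM in SgshKO at 8 months, higher by 0.66 ± 0.06 (adjusted p = 2.2e-09), and it was also higher at 4 months (0.42 ± 0.09, adjusted p = 0.0021; 0.055 without SgshKO replicate 2). Itgax, the alpha chain of the related receptor CR4, was 15.2 to 26.0 CPM in WT and 177 to 494 CPM in SgshKO at 8 months, higher by 4.02 ± 0.25 (adjusted p = 3.3e-12).

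Set against C1q within each library, C3, C4b and Itgam differed between genotypes at 8 months without overlap. The log2 ratio of C3 CPM to the mean of the 3 C1q genes was -11.9 ± 0.99 in WT at 8 months and -6.16 ± 0.81 in SgshKO, and that of C4b was -9.01 ± 1.07 and -5.45 ± 1.3. For C3ar1 the ratio was -3.49 ± 0.17 and -3.17 ± 0.18 at 8 months, with overlap, but -3.37 ± 0.10 and -2.72 ± 0.34 at 3 weeks. Ranges at 8 months also overlapped for Cfb (-11.5 ± 0.28 and -11.1 ± 0.50) and C5ar1 (-4.58 ± 0.65 and -5.10 ± 0.40). Itgam fell further below C1q, from -0.84 ± 0.14 in WT to -1.52 ± 0.21 in SgshKO at 8 months. These ratios are a description and were not tested. Between the C1q chains, the log2 CPM of C1qb minus C1qa was 0.03 ± 0.05 in WT and 0.01 ± 0.09 in SgshKO at 8 months, while C1qc minus C1qa was 0.06 ± 0.08 and -0.18 ± 0.08.

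**Figure D4:**
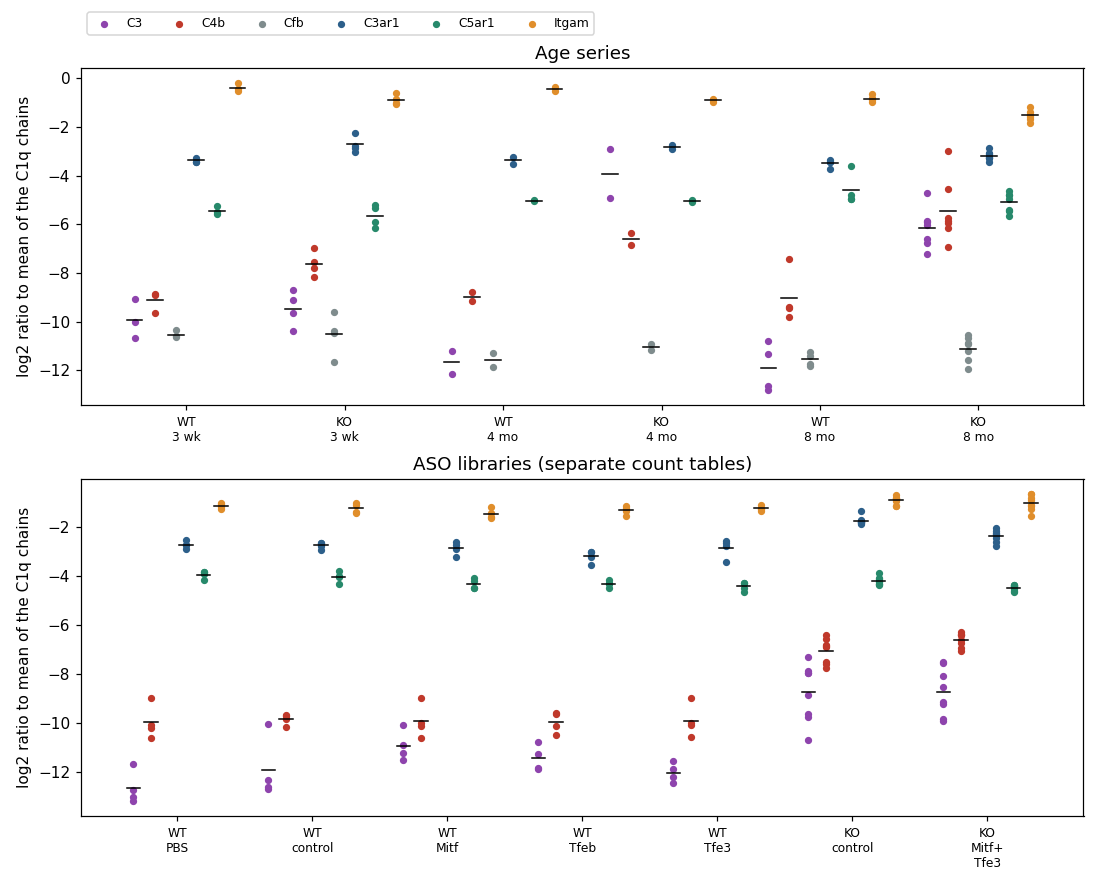
Log2 ratio of each other gene's CPM to the mean of C1qa, C1qb and C1qc, 1 point per library with the mean as a line, in the age series (top) and the ASO libraries (bottom; WT and SgshKO come from separate tables). C3 and C4b approach C1q in SgshKO at 4 and 8 months, to means of -6.16 and -5.45 at 8 months, while Itgam moves away to -1.52.

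The genes whose pattern over the 22 libraries was most like that of 3 of the members were found by Pearson correlation of log2 CPM; the libraries share groups and ages, and r is given as a description. For C1qa they were Edem2 (r = 0.947), Trem2 (0.944), a microglial lipid receptor, and Os9 (0.931). Pygl (0.977), Camp (0.957), a neutrophil granule gene, and Clec7a (0.956) were most like C3. For C4b they were the Fc receptor Fcgr4 (0.942), its signalling chain Fcer1g (0.928) and Fgl2 (0.922).

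Of 53 other genes of the complement system listed for comparison, 29 passed the filter on low counts; since a gene could pass through its high group alone, their counts are a description. At 8 months 11 were called higher and 3 lower (21.6% and 18.9% of all genes), at 4 months 6 and 2 (10.3% and 9.26%), and at 3 weeks 3 and 1 (5.31% and 3.72%). Of the 11, 5 (Fcnb, Cd209a, Colec12, Cd93 and Fcna) reached the filter in 0 WT libraries and could pass only through SgshKO, so their reads at 8 months are a description. C2, which with C4 forms the classical C3 convertase, had 3 reads in all WT libraries at 8 months and 2096 in SgshKO, 356 times the WT level per counted read (95% interval from counting alone, 122 to 1726); it was also called at 3 weeks (2.23 ± 0.49, adjusted p = 0.0033) and at 4 months (4.85 ± 0.71, adjusted p = 2.2e-05). Fcnb, a ficolin that can start the lectin pathway, had 3 reads against 1749, 297 times the WT level with the libraries pooled. That ratio is uneven between libraries: SgshKO ran from 0.970 to 32.7 CPM of Fcnb, with a median of 2.26 CPM. Cd209a had 0 reads in WT and 274 in SgshKO, at least 46.5-fold higher over a floor of 3 reads for the WT group. Colec12, a scavenger collectin, had 6 reads in the 4 WT libraries and 823 in the 7 SgshKO libraries, Cd93 had 5 and 621, and the ficolin Fcna had 7 and 110. Cd59a, which blocks the membrane attack complex, reached the filter in 4 WT libraries of the series; with 13 reads in WT and 285 in SgshKO at 8 months it rose by 3.58 ± 0.72 (adjusted p = 0.00031), and Masp1, a lectin pathway protease, by 1.12 ± 0.18 (adjusted p = 2.4e-05). Csmd3, which encodes a protein with complement control domains, was lower, with a log2 fold change of -1.56 ± 0.16 (adjusted p = 2.0e-08) and was lower at 3 weeks too (-1.51 ± 0.20, adjusted p = 9.2e-06). Calr, the chaperone calreticulin, which can bind C1q, was higher by 0.37 ± 0.06 (adjusted p = 1.9e-05). Cr1l, which encodes the regulator Crry, was at 49.4 to 56.0 CPM in WT and 46.1 to 59.0 CPM in SgshKO (-0.02 ± 0.08, adjusted p = 0.84).

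In WT mice the ASO experiments asked what lowering each factor did. The control ASO against PBS gave 0 called among the 8 genes and 0% of all genes in either direction by edgeR; C3 alone of the 8 had an unadjusted p under 0.05 (log2 difference 1.11 ± 0.51), and DESeq2 called 0 of the 8 and 2 of all genes. With the Mitf ASO the 3 C1q genes were higher and none of the 8 was lower, against 5.77% and 5.21% of all genes. C1qb was 3906, 3986, 3884 and 3442 CPM under the control ASO and 4838, 4862, 4793 and 4267 CPM under the Mitf ASO. Those groups did not overlap (7.67% of all genes did not), and C1qb rose by 0.30 ± 0.06 (adjusted p = 0.0023). C1qa was 5846, 6097, 5508 and 4934 CPM and then 7035, 7553, 6727 and 5528 CPM, with the lowest Mitf ASO library inside the control range; it rose by 0.26 ± 0.06 (adjusted p = 0.0098). C1qc rose by 0.20 ± 0.05 (adjusted p = 0.018). In all 4 grps the Mitf ASO library was above the control ASO library of the same grp for each of the 3 genes.

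With the Tfeb ASO 1 of the 8 genes was higher, C1qb, by 0.26 ± 0.06 (adjusted p = 0.035): 4670, 4490, 4712 and 4345 CPM, all above the control libraries, where 4.07% of all genes did not overlap. Over all genes 0.564% were higher and 0.214% lower. C3ar1, at 466 to 716 CPM against 625 to 798 CPM, differed by -0.27 ± 0.08 and did not pass (adjusted p = 0.16). With the Tfe3 ASO, C1qc rose by 0.20 ± 0.05 (adjusted p = 0.049) and Itgam by 0.19 ± 0.04 (adjusted p = 0.017), against 1.46% higher and 0.701% lower over all genes. C1qa and C1qb differed by 0.20 ± 0.06 and 0.19 ± 0.06 with the Tfe3 ASO and did not pass (adjusted p = 0.10 for each). C1qb was 4126 to 4699 CPM there, above all control libraries, where 4.68% of all genes did not overlap. Itgam was 1827, 1936, 2219 and 2132 CPM under the control ASO and 2201, 2224, 2428 and 2369 CPM under the Tfe3 ASO. These small differences rest on the grp term: without it C1qb was the only one of the 8 still called with Mitf, and 0 of the 8 were called with Tfeb or Tfe3. Calls over all genes fell too without that term. They went from 1128 to 211 with Mitf, from 80 to 9 with Tfeb and from 222 to 29 with Tfe3. Leaving out 1 library ended the call of C1qb with Tfeb in 7 of 8 fits that of C1qc with Tfe3 in 7 of 8, that of C1qc with Mitf in 6 of 8, that of Itgam with Tfe3 in 2 of 8 (control replicate 1 or 2) and that of C1qa with Mitf in 1 of 8 (Mitf replicate 2).

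C3 and C4b stayed low in all WT ASO groups. C3 was 0.558 to 4.42 CPM under the control ASO and 1.98 to 4.43 CPM under the Mitf ASO, a difference of 1.03 ± 0.44 that did not pass (adjusted p = 0.15). Control replicate 3 (4.42 CPM, next 0.873) decided this: without it the difference was 1.96 and was called (adjusted p = 0.0023), as it was on the batch-corrected values (1.80, adjusted p = 0.022). C4b was 4.2 to 5.74 CPM under the control ASO and 3.83 to 11.5 CPM under the Mitf ASO. Of the other complement genes, Itgb2 rose with the Mitf ASO (0.31 ± 0.04, adjusted p = 4.1e-05) and the Tfe3 ASO (0.37 ± 0.04, adjusted p = 3.2e-05), Calr with both (0.22 ± 0.06 and 0.25 ± 0.06, adjusted p = 0.024 and 0.037), and Itgax with the Mitf ASO (1.04 ± 0.21, adjusted p = 0.0041). Csmd3 fell with the Mitf ASO (-0.42 ± 0.12, adjusted p = 0.026). Without the grp term the calls of Calr, Csmd3 and Itgax were lost, and those of Itgb2 were not. The Mitf, Tfeb and Tfe3 comparisons share their control libraries.

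In SgshKO mice, lowering Mitf and Tfe3 together was followed by more C1qa, C1qb, C4b and Itgam transcript and less C3ar1. That is 4 of the 8 genes higher and 1 lower, against 4.84% and 4.50% of all genes. C1qb ran from 1893 to 2459 CPM under the control ASO (median 2400) and from 2626 to 3798 CPM under the combination (median 3245), without overlap (as 1.06% of all genes), and rose by 0.47 ± 0.07 (adjusted p = 0.00041). C4b was 16.6 to 40.0 CPM (median 28.4) and 31.8 to 58.1 CPM (median 39.3), with overlap, and rose by 0.69 ± 0.18 (adjusted p = 0.023). C3ar1 was 948 to 1202 CPM (median 992) and then 727 to 901 CPM (median 789), without overlap, a log2 fold change of -0.36 ± 0.05 (adjusted p = 0.00045).

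C1qa rose by 0.20 ± 0.06 (adjusted p = 0.034) and Itgam by 0.16 ± 0.04 (adjusted p = 0.017), both with overlapping ranges. The call of C1qa was lost in 8 of 16 fits that left out 1 library, that of C4b in 1 (control grp 1 replicate 2, adjusted p = 0.050), and those of C1qa and Itgam without the grp term. C1qc, at 0.12 ± 0.05, did not pass (adjusted p = 0.16). C3 was 1.76 to 20.9 CPM under the control ASO and 4.64 to 20.3 CPM under the combination, a difference of 0.23 ± 0.22 (adjusted p = 0.55). C5ar1 did not differ detectably (-0.02 ± 0.06, adjusted p = 0.87; 0.02 without control grp 2 replicate 1). Within grp 1 it was 0.09 ± 0.08 (adjusted p = 0.50) and within grp 2 -0.14 ± 0.08 (adjusted p = 0.45). Among the other complement genes Itgb2 rose (0.18 ± 0.04, adjusted p = 0.0058) and Itgax fell, with a log2 fold change of -0.64 ± 0.04 (adjusted p = 4.6e-08), from 206 to 240 CPM under the control ASO to 131 to 166 CPM under the combination.

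The 2 grps gave unequal values. Within grp 1, C1qa went from 4078, 4900, 4245 and 5005 CPM to 5840, 5650, 5248 and 6259 CPM (0.34 ± 0.07, adjusted p = 0.0079); within grp 2 it went from 4046, 3799, 3991 and 4057 CPM to 3879, 4045, 4534 and 4243 CPM (0.07 ± 0.07, adjusted p = 0.65). C4b rose by 1.09 ± 0.23 in grp 1 (adjusted p = 0.0085) and differed by 0.33 ± 0.22 in grp 2 (adjusted p = 0.50). For C1qb the values were 0.60 ± 0.08 (adjusted p = 0.0010) and 0.33 ± 0.08 (adjusted p = 0.055), and for C3ar1 -0.46 ± 0.07 (adjusted p = 0.0015) and -0.27 ± 0.07 (adjusted p = 0.055). Grp 1 thus had 4 of the 8 genes higher, the 3 C1q genes and C4b, and 1 lower, against 6.63% and 6.03% of all genes, and grp 2 had 0 of the 8 called against 0.595% and 1.25%. A direct test of the difference between grps called none of the 8 genes and 0% of all genes: it was -0.26 ± 0.10 for C1qa (adjusted p = 0.21) and -0.76 ± 0.32 for C4b (adjusted p = 0.25). The C3 level itself differed by grp: it was 1.76 to 8.77 CPM in the 8 libraries of grp 1 and 9.37 to 20.9 CPM in the 8 of grp 2, with neutrophil marker sums (6 of 9 listed) of 0.996 to 42.3 CPM and 71.3 to 564 CPM. The part of those cells in the C3 level was not tested here either.

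Markers of other cells moved with the combination as well. Mrc1, the 1 border macrophage marker of 6 that this table lists, was called higher (0.22 ± 0.05, adjusted p = 0.014): it went from 116 to 150 CPM under the control ASO to 155 to 182 CPM in grp 1, and from 157 to 183 CPM to 182 to 195 CPM in grp 2. Of 4 listed oligodendrocyte markers 1, Mobp, was higher (1.25 ± 0.22, adjusted p = 0.0022), and their sum went from 79.5 to 91.1 CPM to 92.6 to 102 CPM in grp 1 and from 77.6 to 95.0 CPM to 85.0 to 101 CPM in grp 2. The monocyte marker Ccr2 was lower, with a log2 fold change of -0.71 ± 0.15 (adjusted p = 0.0079), and 1 of 3 listed monocyte markers was called in all. The sum of the 3 leaned the other way, with overlap. It was 79.3 to 274 CPM under the control ASO (median 173) and 78.4 to 354 CPM under the combination (median 252). The median log2 fold change of the 3 was 0.34. Of the 7 microglial markers 2 were higher and 0 lower. Their part in the differences of C1qa, C1qb, C4b, Itgam and C3ar1 was not tested.

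**Figure D5:**
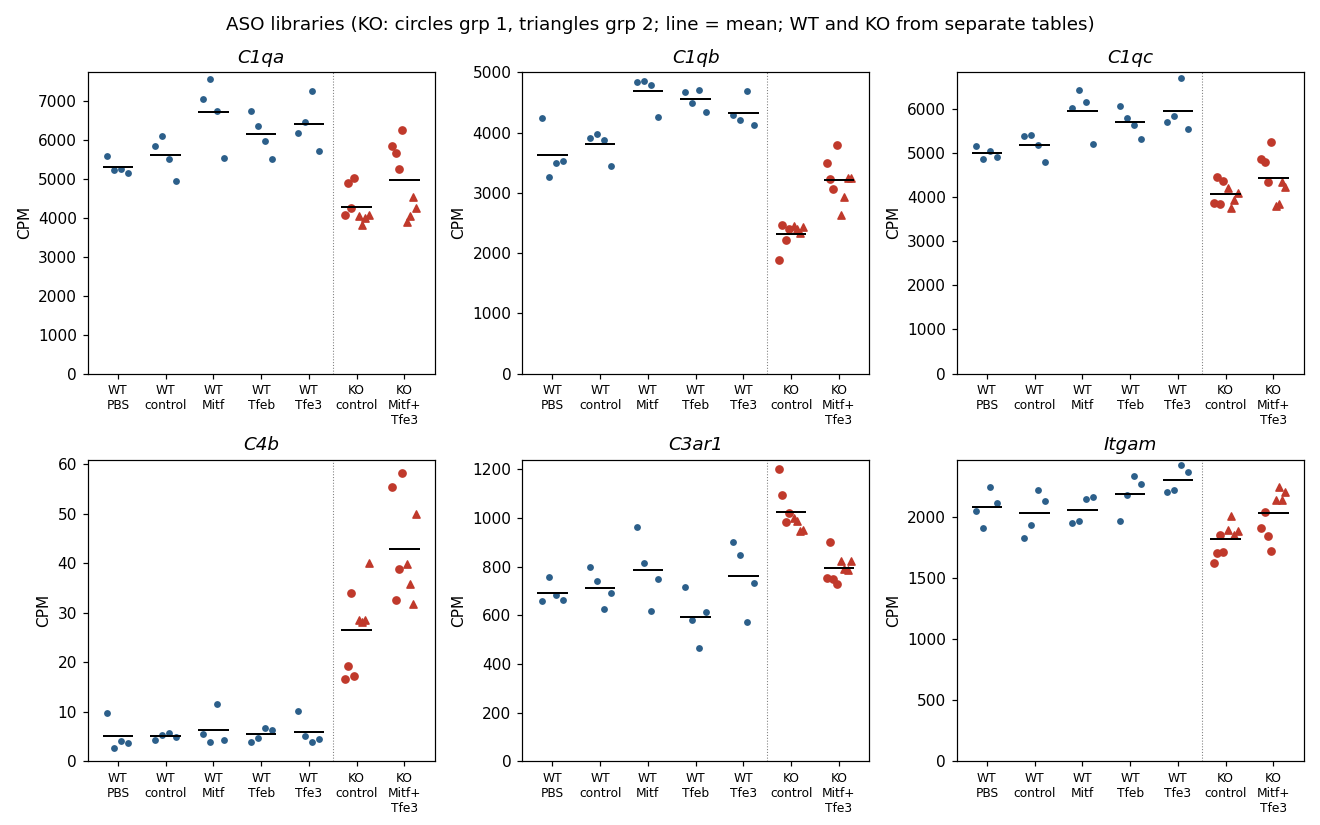
CPM of 6 genes in the ASO libraries, 1 point per library with the group mean as a line; WT in blue, SgshKO in red with circles for grp 1 and triangles for grp 2, from separate tables. C1qb is above its control libraries in every Mitf, Tfeb and Tfe3 ASO library and in every combination library. C3ar1 is below its controls in every combination library.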

How the data were processed

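Polyadenylated RNA of sorted mouse forebrain microglia was sequenced (58 libraries, 13 groups). Per the submitters' processing notes the authors used STAR 2.5.3a, kallisto 0.44.0, HOMER 4.11, DESeq2 1.36.0, R 4.2.3 and the mm10 build; which tool made which table is not given in the sources used here. The authors deposited raw counts per gene (age series, WT ASO and SgshKO ASO), TPM for the age series, and a batch-corrected normalised signal for the ASO libraries. The deposited ASO tables list 10277 and 10589 genes, all of which passed the filter used here.

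Counts were tested with edgeR 4.0.16 (TMM, filterByExpr with a minimum count of 10, quasi-likelihood F test, R 4.3.3), in 1 fit per table: 6 genotype and age groups, 5 treatments plus grp, and 2 treatments plus grp. The grp of a library comes from its title; 1 PBS library has another grp in its column name. Standard errors are the log2 fold change over the square root of F. CPM use TMM-scaled library sizes; log2 CPM have a prior count of 2. Alternatives were DESeq2 1.42.0, RLE factors, no filter, limma 3.58.1 on log2(TPM + 1), log2(TPM + 0.1) or log2(signal + 1), blocks, and leaving out libraries. The fit was tested on simulated data. Counting intervals are exact binomial and cover counting error only.

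The genes and lists were chosen with earlier results of these data known. Named were all 9 genes; of the 53 others, those called with a 2-fold change at 8 months or called in an ASO comparison, plus Itgb2, Itgax, C4a and Cr1l; and the 3 genes outside both lists most correlated with C1qa, C3 and C4b. Marker lists of microglia, neutrophils, monocytes, border macrophages, astrocytes, oligodendrocytes, endothelial cells and neurons and a dissociation list were summed in CPM. At 8 months 3 of 6 astrocyte markers were higher and 1 lower, 2 of 4 tested oligodendrocyte markers were higher, 2 of 4 tested endothelial markers were higher and 1 lower, 0 of 3 tested neuron markers were called, and of 8 dissociation genes 1 was higher and 3 lower. The WT ASO table lists no neutrophil marker.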

Additional observations from a re-analysis of the deposited data

Results flagged for a closer look

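In groups of 4 to 10 libraries, the gap between the most extreme library and its neighbour was set against the group's range (Dixon's 95% critical value; chance marks about 1 group in 20, and 83 were examined). C3 in SgshKO 8-month replicate 3 was 187 CPM with the next at 96.7. C4b in SgshKO 8-month replicate 2 was 643 CPM with the next at 244, and Itgam in the same library was 2250 CPM with the next at 1823. WT 8-month replicate 4 stood high for C4b (21.3 CPM, next 5.82) and for C5ar1 (300.3 CPM, next 137). Under the control ASO in WT, replicate 3 had 4.42 CPM of C3 (next 0.873) and 239 CPM of C5ar1 (next 306). Under the Mitf ASO, replicate 4 had 4267 CPM of C1qb (next 4793) and replicate 1 had 350 CPM of C5ar1 (next 271). In SgshKO under the control ASO, grp 1 replicate 1 had 1893 CPM of C1qb (next 2214).

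The genotype difference of C3 differed between ages by a test of the difference itself: 7.76 on the log2 scale for 4 months minus 3 weeks (adjusted p = 0.00019, edgeR) and 5.87 for 8 months minus 3 weeks (adjusted p = 4.1e-05).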

How the results depend on the processing

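The rises of C1qa, C1qb, C3, C4b and C3ar1 at 8 months, of C3 and C3ar1 at 4 months and of C3ar1 at 3 weeks kept their direction and call under every alternative run; on log2(TPM + 1), where the pseudocount shrinks low genes, C3 was 4.03 at 8 months and 5.75 at 4 months. At 3 weeks the number of genes called higher, 1, was 3 with DESeq2, 2 with no filter, 2 without SgshKO 8-month replicates 1 and 3 and 3 without the 4-month libraries; leaving out 1 library gave 1 to 4. At 4 months 1 gene (Itgam) was lower on either TPM scale, beside 1927 of all 13406 genes tested on each. At 8 months the 1 lower gene (Itgam) became 0 without SgshKO replicates 1 and 3, and 0 to 1 leaving out 1 library. All genes called lower were 2703 in the main fit and 2450 without those replicates. The count for 8 months minus 3 weeks, 1, was 2 with no filter (C4b added), and 1 to 2 leaving out 1 library. With no filter 959 of all genes were higher there, against 856 in the main fit. For WT ageing 1 gene became lower with no filter and 1 without SgshKO 8-month replicates 1 and 3. Those fits had 673 and 604 of all genes lower, against 662 in the main fit. The 1 gene lower with age in SgshKO became 0 with RLE factors, 0 with no filter and 0 without SgshKO 8-month replicates 1 and 3. It was 0 to 1 leaving out 1 library. Counts over all genes were 2160 in the main fit, then 2044 with RLE factors, 2115 with no filter and 1784 without those replicates. In the ASO tables, leaving out 1 library gave 1 to 3 higher genes with Mitf, 0 to 1 with Tfeb, 0 to 2 with Tfe3 and 2 to 4 with the combination. Such fits gave 362 to 512 of all genes with Mitf, 16 to 47 with Tfeb and 62 to 99 with Tfe3. Fitting treatment alone gave 2 for the combination, beside 181 of all genes. Within grp 2 it was 0 higher and 0 lower, beside 63 and 132 of all genes. Leaving out libraries by their neutrophil markers, leaving out the 4-month libraries and the within-grp fits were chosen after seeing the data. The cause of these changes was not tested.

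C5ar1 changed sign without passing any test: at 3 weeks -0.0072 and -0.0077 on the log2(TPM + 1) and log2(TPM + 0.1) scales, and -0.054 to 0.18 leaving out 1 library; at 8 months -0.27 to 0.28 leaving out 1 library. In the SgshKO ASO table it was 0.095 within grp 1, -0.14 within grp 2 and -0.062 to 0.024 leaving out 1 library. C1qc at 4 months was -0.026 to 0.14 leaving out 1 library, and its difference of 8 months minus 3 weeks was -0.013 on both TPM scales and -0.042 without SgshKO 3-week replicate 1. Cr1l at 8 months was 0.0040 without WT replicate 1.

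With the replicate number within each age as a replicate block, C5ar1 was -0.056 at 3 weeks and 0.12 at 8 months, Cr1l was 0.0061 at 8 months, the 1 lower gene at 8 months became 0, Cfb lost its call (0.96, adjusted p = 0.17) and C4b at 4 months gained one (2.57, adjusted p = 0.028). Deviations of same-numbered libraries from their group means had r from -0.17 to 0.11. The labels do not pair these libraries, and low r cannot show that they share nothing but a number. With that block 2043 of all genes were lower at 8 months. Ageing within a genotype could not be fitted with it. In the WT ASO table r between libraries of 1 grp ran from -0.033 to 0.64. Without the grp as replicate block 1 of the 8 genes was higher with Mitf, 0 with Tfeb and 0 with Tfe3. Of all 10277 genes 147, 6 and 25 were higher in those fits. In the SgshKO ASO table r was 0.084 to 0.61 within grps, and the replicate block changed no call count by over 1.5 times.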

Other observations

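In WT mice, 3 of the 29 other complement genes tested were lower at 8 months than at 3 weeks and none was higher (edgeR), against 4.63% lower and 3.02% higher over all genes. C2 had 27 reads at 3 weeks and 3 at 8 months, a log2 fold change of -3.43 ± 0.82 (adjusted p = 0.0093; 0.059 without WT 3-week replicate 3). Calr changed by -0.38 ± 0.07 (adjusted p = 0.00097). Lrp1, which encodes a large endocytic receptor, changed by -0.32 ± 0.09 (adjusted p = 0.026) and lost its call without WT 3-week replicate 1 or 3 or WT 8-month replicate 1 or 4; it was named after its values were seen. For the genotype difference at 8 months minus that at 3 weeks, 5 of the 29 were called higher and 0 lower (5.98% and 3.26% of all genes). C2 was larger by 5.97 ± 0.86 (edgeR, adjusted p = 5.2e-05), Itgax by 2.90 ± 0.34 (adjusted p = 3.0e-06) and Itgb2 by 0.56 ± 0.09 (adjusted p = 0.00022). Colec12 and Cd93, the others, could pass the filter only through SgshKO.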
